A study of Homo sapiens with 4 samples.

Results

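Receptor tyrosine kinases other than the TAM receptors (AXL, TYRO3, MERTK) and the EGFR family were followed in MDA-MB-231 cells depleted of AXL. The members were a list of 50 genes, found in the deposited expression table by gene symbol. They made up 50 of the 63677 genes listed there. DDR1 had 7 rows and EPHB6 had 2, and the row with the highest mean was kept because the remaining rows held 0 reads. MDA-MB-231 is an established human triple-negative breast cancer line, which lacks the oestrogen and progesterone receptors and carries a mesenchymal phenotype. Cells received either a control siRNA (siCt, 2 libraries) or a pool of siRNAs against AXL (siAxl, 2 libraries), both delivered by lipid transfection, and total RNA was sequenced. A single siRNA pool in a single cell line limits the model, and the labels do not say whether the libraries of a group came from separate cultures, so the p-values measure only the spread between these libraries, which may be technical.

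Receptor tyrosine kinases are single-pass membrane proteins in which binding of a ligand outside the cell pairs or clusters the receptors and switches on an intracellular kinase. The phosphorylated tails recruit adaptors such as GRB2, SHC and GAB proteins, which feed the RAS, PI3K and phospholipase C pathways, while phosphatases and ubiquitin ligases end the signal. In breast cancer cells, MET, the Eph receptors, the FGF receptors and the insulin-like growth factor receptor are known as routes of growth and motility signalling, and several family members can act beside AXL at the membrane.

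The 4 libraries held 39574387 to 44585773 reads assigned to genes. AXL itself, measured as a check of the labels, had normalized counts of 29189 and 30617 in siCt and of 8658 and 7141 in siAxl. The siAxl mean was 0.264 of the siCt mean, a log2 fold change of -1.93 (SE 0.0918, adjusted p = 0.000585 by limma with Benjamini-Hochberg adjustment). The mesenchymal marker VIM had 376631 reads over the 4 libraries, and the luminal genes ESR1, PGR and FOXA1 had 7, 3 and 9, while GATA3 had 1130. Of the other markers expected in such a line, CD44, EGFR, LAMB1, CDH2 and SPARC averaged 35810.75, 10707.25, 9118, 58.25 and 32 reads per library. Of the 6 together, 2 rose and 1 fell, and the genes with an adjusted p under 0.05 were LAMB1, EGFR and CDH2. The log2 fold changes of the 6 ran from -0.86 to 1.03. Of all genes tested, 10.8% rose and 7.91% fell.

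Of the 50 receptor genes, 30 had enough reads to be tested. At an adjusted p under 0.05, 9 of the 30 were higher in siAxl and 3 were lower. Among all 16064 genes tested, 10.8% were called higher and 7.91% lower, 18.7% in all. That is 1735 genes higher and 1271 lower, where scaling by library size gave 1536 and 1745, with 8 receptors higher and 3 lower. The receptors that rose were PTK7, DDR1, MET, EPHA4, PDGFRB, FGFR1, IGF1R, LTK and EPHB4, and those that fell were CSF1R, MUSK and LMTK3. The median log2 fold change over the 30 tested receptors was 0.14, beside -0.0022 over all genes tested. When every gene with at least 1 read was tested, MET, DDR1, PTK7, EPHA4 and PDGFRB were still called, and FGFR1 (adjusted p = 0.0549), IGF1R (0.0632), LTK (0.0925), EPHB4 (0.0875), CSF1R (0.0794), MUSK (0.0779) and LMTK3 (0.118) were not. Both siAxl libraries lay above both siCt libraries for 15 of the 30 receptors and below them for 7, where 30.6% and 30.5% of all genes did so. Summed over all 50 members, the normalized counts were 74486 and 77186 in siCt and 83349 and 87377 in siAxl. In that sum the mean of MET went from 12996 to 18232 and that of EPHA2, the largest member, from 24021 to 23117. Over all genes the sum was 42461489 to 42879341 in siCt and 43302925 to 43784631 in siAxl. All counts and medians of members that passed the read filter describe those genes only, and 20 members were not among them.

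**Figure D1:**
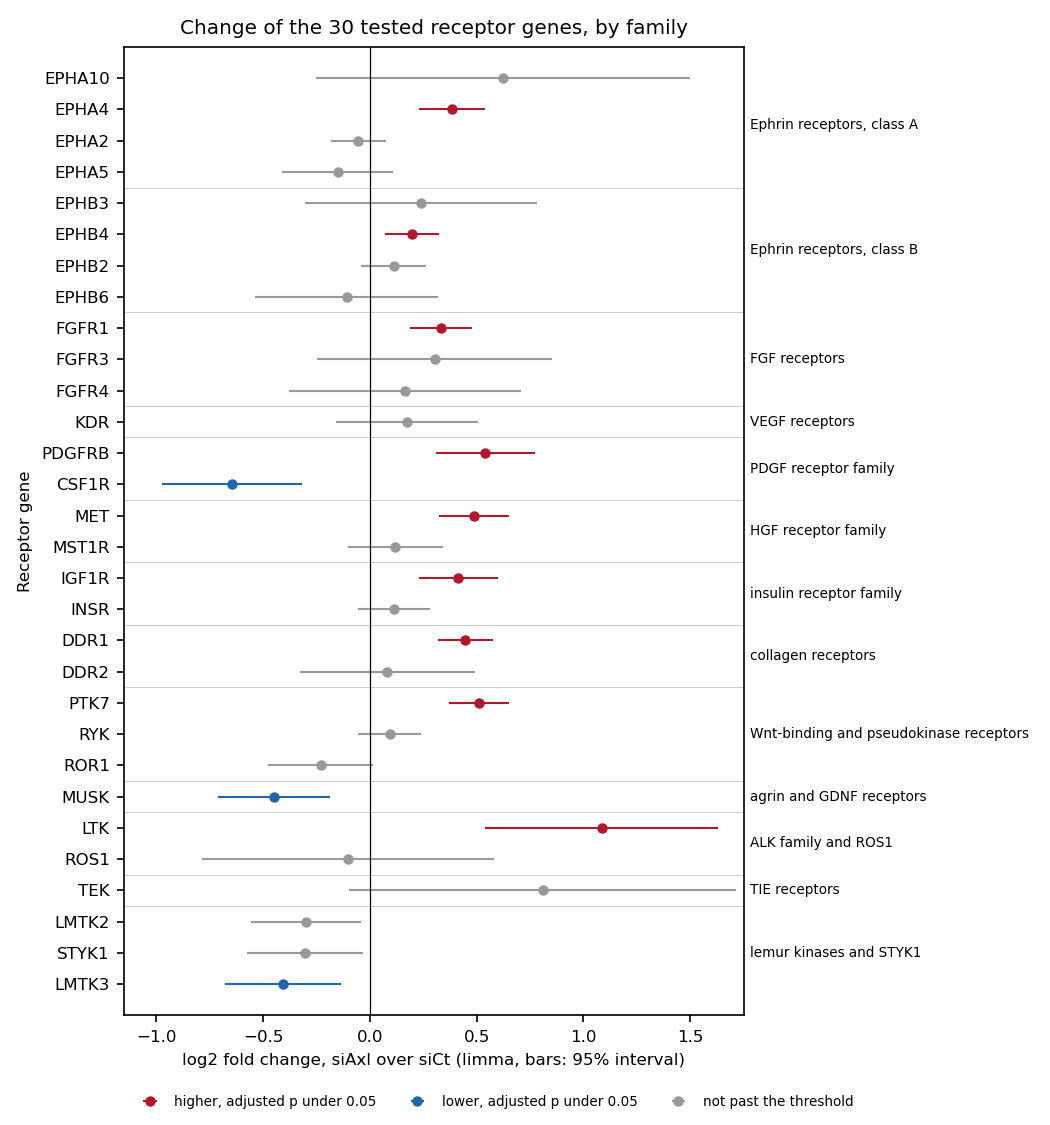
Log2 fold change of siAxl over siCt (horizontal axis, limma on log2 of the normalized count plus 1) for the 30 tested receptor genes grouped by family (vertical axis), with 95% intervals as bars and colours for genes called higher, lower or neither. LTK has the highest value at 1.08 and CSF1R the lowest at -0.65.

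Levels between genes were compared as reads per kilobase of the longest coding transcript and normalised to the library's total reads (RPKM). EPHA2, a receptor for membrane-bound ephrin-A ligands, had the highest level, with a mean RPKM of 142 ± 1.67 in siCt and 134 ± 1.34 in siAxl (SD, n = 2 each). MET, the receptor for hepatocyte growth factor, came next with a mean RPKM of 45.9 ± 1.06 in siCt and 63.1 ± 4.66 in siAxl. DDR1, a receptor for collagen, followed at an RPKM of 29.8 in siCt and 39.8 in siAxl. EPHA2 alone made up 37.6% of the summed RPKM of the 50 members, MET 14.7% and DDR1 9.43%. The mean RPKM over the 4 libraries was 24.1 for FGFR1, 20.6 for EPHB4 and 19.3 for RYK, and ROR1 (13.3), EPHB2 (12.6) and PTK7 (10.2) came after them. The 10 highest receptors held between 90.8% and 91.7% of the summed RPKM in every library. The share of the highest pair, EPHA2 and MET, was 53.3% in both siCt libraries and 51.1% and 51.9% in siAxl. With merged exon lengths in place of transcript lengths, EPHA2, MET and DDR1 kept their order, FGFR1 moved from 4th to 7th place and RYK from 6th to 9th. The mean RPKM over the 4 libraries then went from 34.8 to 15.8 for DDR1, from 24.1 to 10.5 for FGFR1, from 19.3 to 7.06 for RYK and from 10.2 to 4.85 for PTK7. On that scale EPHA2 made up 45.0% of the sum, MET 17.6% and DDR1 5.41%. The summed RPKM was 349 and 356 in siCt and 377 and 388 in siAxl.

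**Figure D2:**
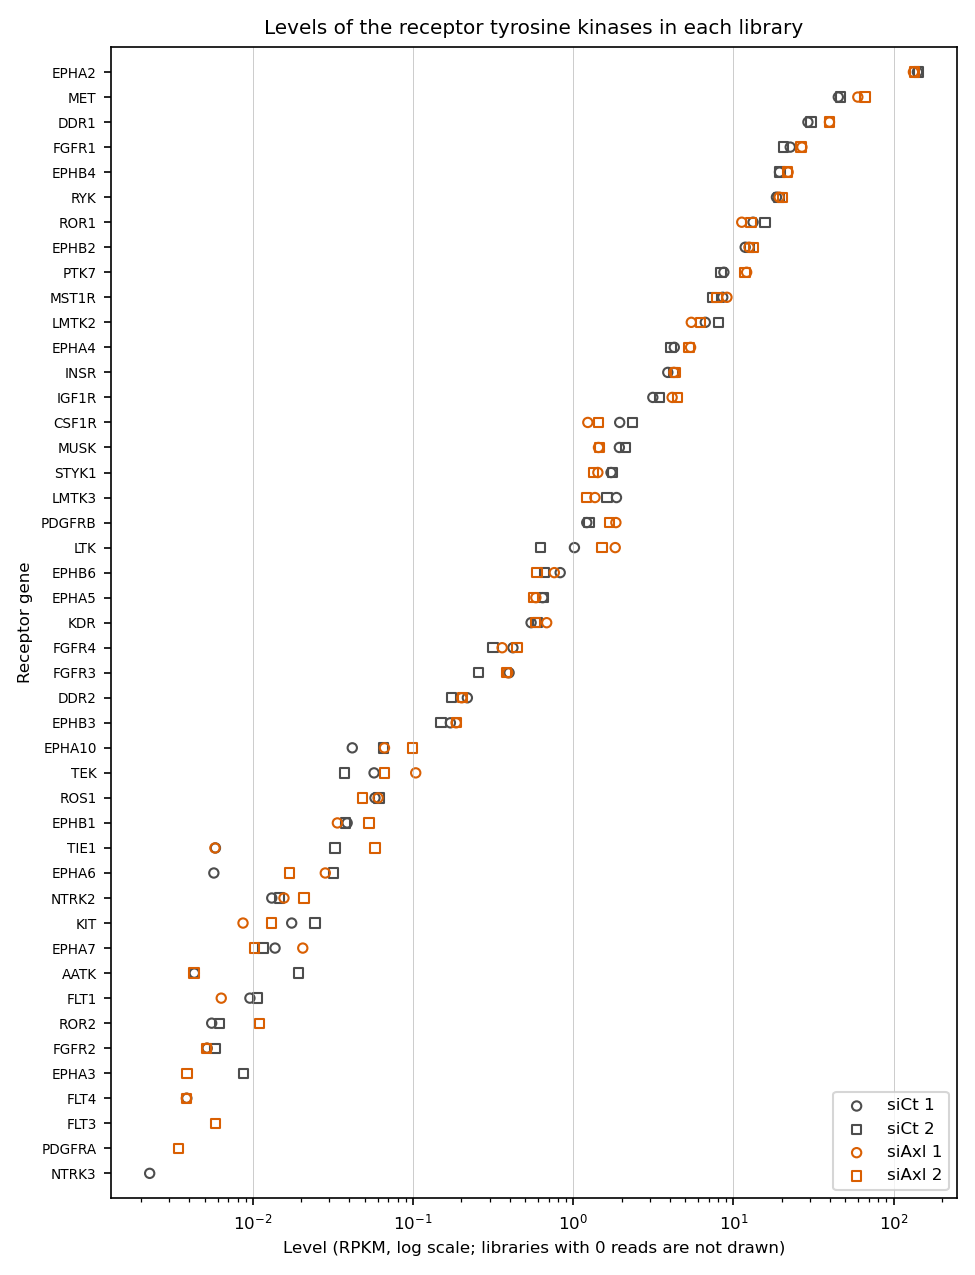
Level of each receptor gene (vertical axis) in RPKM on a log scale (horizontal axis), with a point per library and a colour per group. Levels run from above 100 for EPHA2 to well under 1 for most receptors in the lower part of the plot, and the libraries of a gene lie close together except at the lowest levels.

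MET and MST1R are the receptors for hepatocyte growth factor and macrophage-stimulating protein. MET (ENSG00000105976) had normalized counts of 12720 and 13272 in siCt and of 17178 and 19286 in siAxl. Both siAxl libraries lay above both controls, and the mean went from 12996 ± 391 to 18232 ± 1490 (SD, n = 2 each). Its log2 fold change was 0.49 (SE 0.0699, 95% interval 0.32 to 0.65, adjusted p = 0.00611). MST1R had 1651 and 1436 in siCt and 1788 and 1565 in siAxl. The groups overlapped, and the log2 fold change of 0.12 (95% interval -0.10 to 0.34) had an adjusted p of 0.428. HGF, the ligand of MET, had 0 reads in every library, which allows at most 3 reads each.

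The collagen receptors differed strongly in level. DDR1 (ENSG00000204580) had normalized counts of 5138 and 5414 in siCt and of 7142 and 7239 in siAxl. It was higher in both siAxl libraries by a ratio of 1.36, with a log2 fold change of 0.45 (SE 0.0552, adjusted p = 0.00385). DDR2, which binds fibrillar collagens, had 94.0 and 75.8 in siCt and 88.4 and 90.4 in siAxl, groups that overlapped, with a log2 fold change of 0.08 (adjusted p = 0.788).

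Among the receptors that bind Wnt ligands or lack kinase activity, PTK7 rose and RYK and ROR1 were not called. PTK7 (ENSG00000112655), a catalytically inactive receptor of the planar cell polarity pathway, had normalized counts of 1580 and 1534 in siCt and of 2236 and 2206 in siAxl. The replicates lay close together within each group, at means of 1557 ± 32.5 and 2221 ± 21.1 (SD, n = 2 each). PTK7 had the smallest adjusted p of the members, 0.00334, at a log2 fold change of 0.51 (SE 0.0597, 95% interval 0.37 to 0.65). RYK, a Wnt receptor with an inactive kinase domain, had 2318 and 2423 in siCt and 2458 and 2595 in siAxl. ROR1, which binds WNT5A, had 3282 and 3929 in siCt and 2845 and 3290 in siAxl. The log2 fold change of RYK was 0.09 (95% interval -0.05 to 0.24, adjusted p = 0.345) with both siAxl libraries above the controls, and that of ROR1 was -0.23 (-0.48 to 0.01, adjusted p = 0.166) with overlapping groups. ROR1 passed the threshold without siCt replicate 1, at -0.36 (adjusted p = 0.00144), and was at -0.10 (0.519) without siCt replicate 2. ROR2 had 4 reads over the 4 libraries.

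The Eph receptors, which respond to ephrins on neighbouring cells, formed the largest group, with 9 genes of class A and 5 of class B. Of these, 4 in each class were tested and 1 in each class rose, where 10.8% of all genes tested did. EPHA4 (ENSG00000116106) had normalized counts of 1151 and 1107 in siCt and of 1483 and 1463 in siAxl. It was higher in both siAxl libraries, with a log2 fold change of 0.38 (SE 0.065, adjusted p = 0.0103), and without siAxl replicate 1 the change was 0.37 with an adjusted p of 0.051. EPHB4 (ENSG00000196411), the receptor for ephrin-B2, had 3562 and 3619 in siCt and 4113 and 4125 in siAxl. Its log2 fold change of 0.20 (SE 0.0531, 95% interval 0.07 to 0.32, adjusted p = 0.0424) was the smallest of the called receptors. The EPHB4 call was lost under DESeq2 (adjusted p = 0.0522) and whichever library was left out (adjusted p 0.0983 to 0.183). EPHB4 shares 69 exon bases with SLC12A9 on the opposite strand, which had a mean of 1626 reads per library beside 3872 for EPHB4, and the strand setting of the counting was not given.

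EPHA2, the most abundant member, was not called. It had normalized counts of 23704 and 24338 in siCt and of 22826 and 23408 in siAxl. Both siAxl libraries lay below both controls, and the log2 fold change was -0.06 (95% interval -0.18 to 0.07, adjusted p = 0.532). EPHB2, a receptor for ephrin-B ligands, had 5436 and 5818 in siCt and 5854 and 6309 in siAxl, a log2 fold change of 0.11 (95% interval -0.04 to 0.26, adjusted p = 0.271) with no overlap between groups. EPHA5 had 230 and 236 in siCt and 213 and 207 in siAxl, with a log2 fold change of -0.15 (adjusted p = 0.387) and both siAxl libraries lower. EPHB6, which lacks kinase activity, had 141 and 114 in siCt and 132 and 104 in siAxl, overlapping groups with an adjusted p of 0.721. EPHB3 and EPHA10 were tested at low counts of 9.59 to 34.4 and were not called (adjusted p = 0.522 and 0.287).

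**Figure D3:**
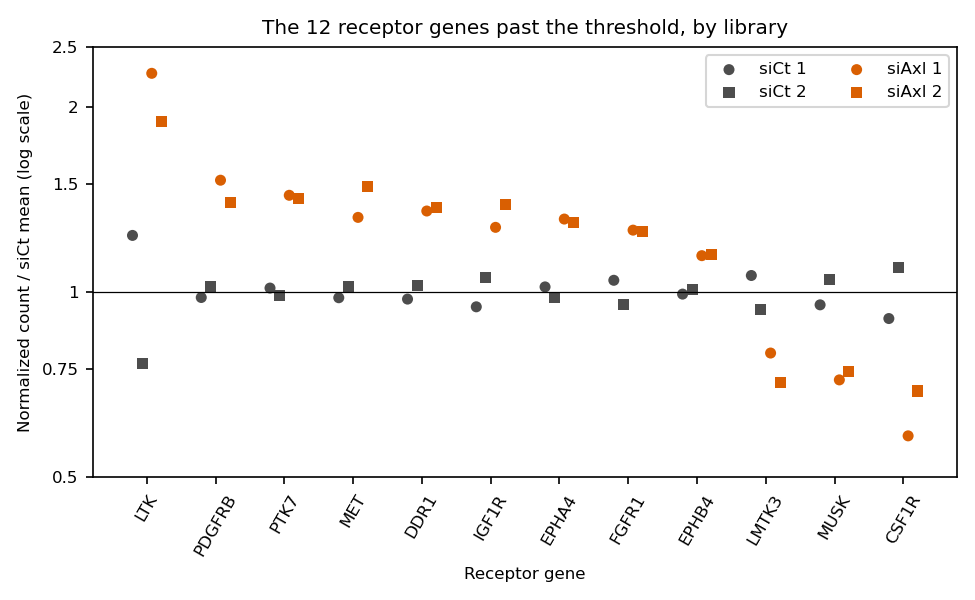
Normalized count of the 12 called receptor genes (horizontal axis) in each library, divided by the gene's siCt mean and drawn on a log scale (vertical axis), with a colour per group. For all 12 genes the siAxl points lie on one side of both siCt points, but the genes were chosen by adjusted p from these same libraries. Among all genes tested, 30.6% had both siAxl libraries above both siCt libraries and 30.5% below. LTK and PDGFRB lie highest.

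FGFR1, the receptor for fibroblast growth factors with the highest level here, rose. FGFR1 (ENSG00000077782) had normalized counts of 5815 and 5317 in siCt and of 7014 and 6986 in siAxl. Both siAxl libraries were higher, with a log2 fold change of 0.33 (SE 0.0616, adjusted p = 0.0137) and a ratio of 1.26. Without siAxl replicate 1 the adjusted p was 0.051. FGFR1 shares 138 exon bases with LETM2, which is read from the opposite strand and averaged 433.5 reads per library beside 6325.75 for FGFR1. FGFR3 and FGFR4 were far lower, with normalized counts between 42.3 and 74.8, and neither was called (adjusted p = 0.415 and 0.670). FGFR2 had 4 reads over the 4 libraries.

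In the insulin receptor family, IGF1R rose and INSR was not called. IGF1R (ENSG00000140443), the receptor for IGF1 and IGF2, had normalized counts of 1629 and 1815 in siCt and of 2193 and 2393 in siAxl. Both siAxl libraries were higher, with a log2 fold change of 0.41 (SE 0.0784, 95% interval 0.23 to 0.60, adjusted p = 0.0147), and without siAxl replicate 2 the change was 0.35 with an adjusted p of 0.0596. INSR, the insulin receptor, had 1479 and 1626 in siCt and 1646 and 1711 in siAxl. Its siAxl libraries also lay above the controls, but the log2 fold change of 0.11 (95% interval -0.06 to 0.28) had an adjusted p of 0.313. INSRR had 0 reads in every library.

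The PDGF receptor family held 1 gene that rose and 1 that fell. PDGFRB (ENSG00000113721), which binds PDGF-B and PDGF-D and is typical of mural cells and fibroblasts, had normalized counts of 294 and 307 in siCt and of 456 and 420 in siAxl. The mean rose from 301 ± 8.67 to 438 ± 26.1 (SD, n = 2 each), a ratio of 1.46, with a log2 fold change of 0.54 (SE 0.0985, adjusted p = 0.013). CSF1R (ENSG00000182578), the receptor for CSF1 and IL34 that is typical of macrophages, had 330 and 399 in siCt and 213 and 252 in siAxl. Both siAxl libraries lay below both controls. The mean of CSF1R fell from 364 ± 48.7 to 232 ± 27.5, a log2 fold change of -0.65 (SE 0.138, 95% interval -0.97 to -0.32, adjusted p = 0.0219). In the RefSeq gene order CSF1R and PDGFRB are neighbouring coding genes on chromosome 5, and their directions here were opposite. Without siAxl replicate 1, PDGFRB had a log2 fold change of 0.48 (adjusted p = 0.0736) and CSF1R one of -0.53 (adjusted p = 0.0797). PDGFRA, KIT and FLT3 had 1, 14 and 1 reads over the 4 libraries.

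Markers of the cell types that usually carry these receptors were read in the same libraries. Of 5 fibroblast and pericyte markers, DCN had 5 reads over the 4 libraries, and COL1A2 rose with a log2 fold change of 0.48 (adjusted p = 0.0333). The other tested markers were not called, at log2 fold changes of 0.50 for ACTA2 (adjusted p = 0.130), -0.30 for RGS5 (0.243) and -0.46 for LUM (0.411). The summed normalized count of this list was 469 to 549 in siCt and 578 to 589 in siAxl, and its part in the PDGFRB result was not tested. Of 7 leukocyte and mast cell markers, CMA1 was at 0, CD3E and TPSAB1 had 1 read each, PTPRC had 45, and 0 of 4 tested were called by limma, with 2 at an unadjusted p under 0.05 and 1 called by edgeR. Their sum was 131 to 155 in siCt and 163 to 192 in siAxl. Of the 4 tested, CD14 had a log2 fold change of 0.57 (adjusted p = 0.0509, and 0.0480 by edgeR), CD68 one of 0.45 (0.301) and PTPRC one of 0.16 (0.839), while LYZ had one of -0.86 (0.103). The part of these markers in the CSF1R result was not tested. CD68 shares 1789 exon bases on the same strand with AC016876.2, which averaged 64.75 reads per library beside 36.25 for CD68. ACTA2 shares 380 with FAS on the opposite strand, at 203 reads beside 76.5. RGS5 shares 534 on the same strand with another RGS5 entry, at 39.25 reads beside 150.75. All 4 libraries are labelled MDA-MB-231, a cultured line, so no other cell type was part of the design. In bulk RNA, fewer cells with a transcript and less of it per cell cannot be told apart.

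KDR, a receptor for VEGF, was the tested member of the VEGF receptor family, and TEK, a receptor for angiopoietins, that of the TIE family. KDR had normalized counts of 140 and 155 in siCt and of 179 and 154 in siAxl, overlapping groups with a log2 fold change of 0.17 (adjusted p = 0.443). TEK had 11.5 and 7.58 in siCt and 21.4 and 13.8 in siAxl, a log2 fold change of 0.81 whose 95% interval ran from -0.10 to 1.72 (adjusted p = 0.188). FLT1, FLT4 and TIE1 had 8, 3 and 17 reads over the 4 libraries. Of the 6 endothelial markers, PECAM1 and CLDN5 were at 0, EMCN, CDH5 and VWF had 1, 3 and 20 reads, and ROBO4, with 7080 reads, was called higher at a log2 fold change of 0.30 (adjusted p = 0.0316). The sum of this list was 1497 to 1668 in siCt and 1934 to 1956 in siAxl.

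LTK, a receptor for the ALKAL cytokines, had the largest fold change of the called members. LTK (ENSG00000062524) had normalized counts of 131 and 81.3 in siCt and of 241 and 201 in siAxl. Both siAxl libraries were higher, the mean went from 106 ± 35.4 to 221 ± 27.9 (SD, n = 2 each), and the ratio was 2.08. The log2 fold change of LTK was 1.08 (SE 0.231, 95% interval 0.54 to 1.63, adjusted p = 0.0216), and without siAxl replicate 1 it was 0.96 with an adjusted p of 0.0584. ALK, its closest relative, had 0 reads in every library. ROS1 was tested at 15.7 to 19.5 normalized counts and was not called (adjusted p = 0.840).

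MUSK, the receptor that gathers acetylcholine receptors at the nerve-muscle junction in response to agrin, fell. MUSK (ENSG00000030304) had normalized counts of 275 and 302 in siCt and of 208 and 214 in siAxl. Both siAxl libraries lay below the controls, with a log2 fold change of -0.45 (SE 0.112, 95% interval -0.71 to -0.19, adjusted p = 0.0335). The call was lost under DESeq2 (adjusted p = 0.0723), and without siCt replicate 2 (-0.38, adjusted p = 0.118), siAxl replicate 1 (-0.43, 0.136) or siAxl replicate 2 (-0.47, 0.0979). RET, the receptor for the GDNF family, had 0 reads in every library. The neurotrophin receptors NTRK2 and NTRK3 had 24 and 2 reads over the 4 libraries. Of 5 neural and Schwann cell markers, SOX10 was at 0 and GFAP averaged 179.75 reads per library. Of 2 tested, GFAP and SNAP25, 0 were called by limma or edgeR, with 0 at an unadjusted p under 0.05. The sum of this list was 159 to 198 in siCt and 219 to 226 in siAxl.

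The lemur kinases LMTK2 and LMTK3 are membrane kinases of the same tyrosine kinase branch without a known ligand. They and STYK1 all had negative changes, and 1 of the 3 passed the test. Of all genes tested, 7.91% were called lower and 49.7% had a positive change. LMTK3 (ENSG00000142235) had normalized counts of 404 and 355 in siCt and of 302 and 270 in siAxl. Both siAxl libraries were lower, and the log2 fold change of -0.41 (SE 0.115, 95% interval -0.68 to -0.13) had an adjusted p of 0.04996, just under the threshold. That call was lost under edgeR (adjusted p = 0.0619) and DESeq2 (0.0806), and without siCt replicate 1 (-0.31, 0.13), siAxl replicate 1 (-0.49, 0.0816) or siAxl replicate 2 (-0.33, 0.204). LMTK2 had 2533 and 3083 in siCt and 2112 and 2445 in siAxl. STYK1 had 219 and 225 in siCt and 185 and 175 in siAxl. For LMTK2 and STYK1 the siAxl libraries lay below the controls, each with a log2 fold change of -0.30, and the adjusted p values of 0.101 and 0.113 did not pass. Leaving out a library moved LMTK2 across the threshold, to -0.44 (adjusted p = 0.000122) without siCt replicate 1, and to -0.16 (0.283) without siCt replicate 2. AATK, the third lemur kinase, had 6 reads over the 4 libraries.

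**Figure D4:**
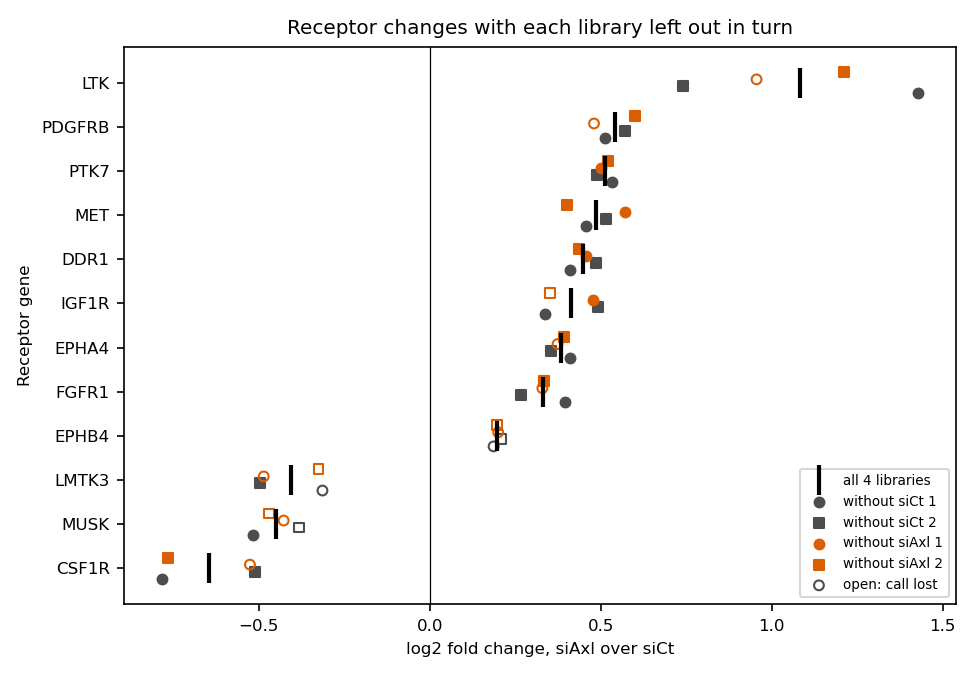
Log2 fold change of siAxl over siCt (horizontal axis) for the 12 called receptor genes (vertical axis), from the fit of all 4 libraries and from the 4 fits that each omit a library (open points: call lost). LTK has the widest range, 0.74 to 1.43. No sign can change here, because both siAxl libraries of each gene lie beyond both siCt libraries.

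The 20 receptor genes that were not tested included 5 with 0 reads in all libraries, namely EPHA1, EPHA8, INSRR, RET and ALK. The remaining 15 had between 1 and 33 reads over the 4 libraries, with EPHB1 at 33 the highest. A gene with 0 counted reads may have had as many as 3, or 0.0673 to 0.0758 CPM in a library. A difference in these genes was not detectable here. EPHA1 shares 82 exon bases with ZYX on the opposite strand and had 0 reads, which does not tell the strand setting of the counting.

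The ligand list held 63 genes, which are ligands of the member receptors, relatives of those ligands and the carrier FGFBP1, of which 39 were tested. Of these, 10 rose and 2 fell, with a median log2 fold change of 0.13, and 28 of 39 changes were positive. Among all genes tested, 10.8% rose, 7.91% fell and 49.7% of changes were positive. MDK (midkine), a heparin-binding growth factor, had normalized counts of 522 and 410 in siCt and of 1219 and 1250 in siAxl, a log2 fold change of 1.42 (SE 0.118, adjusted p = 0.00176). EFNB3, a ligand of class B Eph receptors, had 24.9 in both siCt libraries and 90.3 and 74.7 in siAxl, with a log2 fold change of 1.68 (SE 0.209, adjusted p = 0.00393). Both genes were higher in each siAxl library than in either control.

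Of 18 fibroblast growth factor genes on the list, 6 were tested and 3 rose. Of 4 PDGF chains, all tested, 3 rose, where 10.8% of all genes tested did. Both counts were made after the values were seen. FGF5 had 642 and 598 in siCt and 966 and 995 in siAxl (log2 fold change 0.66, adjusted p = 0.00344). FGF1 had 106 and 101 in siCt and 190 and 210 in siAxl (0.94, adjusted p = 0.00597), and FGF14, an intracellular member of the family that is not secreted, had 36.4 and 35.8 against 68.0 and 80.6 (1.02, adjusted p = 0.0159). FGFBP1, a carrier that releases FGFs from the matrix and is not itself a ligand, rose by 1.21 (adjusted p = 0.00435). PDGFA and PDGFC, the chains that bind mainly PDGFRA, rose by 0.50 and 0.26 on the log2 scale (adjusted p = 0.015 and 0.0239). PDGFA lost its call without siAxl replicate 1 (adjusted p = 0.0561) or siAxl replicate 2 (0.0571), and PDGFC without siCt replicate 2 (0.0723), siAxl replicate 1 (0.131) or siAxl replicate 2 (0.0703). FGF14 lost it without siAxl replicate 2 (0.0838). It shares 4354 exon bases with ITGBL1, transcribed the other way, which averaged 96.25 reads per library beside 55.75 for FGF14, so reads of the pair cannot be told apart without the strand setting. PDGFB, a ligand of PDGFRB named after its values were seen, had 29.7 and 28.2 in siCt and 67.0 and 51.1 in siAxl, with a log2 fold change of 0.99 (adjusted p = 0.0271). VEGFC, also named afterwards, had 3676 and 3217 in siCt and 4511 and 4225 in siAxl (0.34, adjusted p = 0.0252).

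Of the ligands, KITLG, which binds KIT, fell. It had 474 and 557 in siCt and 359 and 369 in siAxl (log2 fold change -0.49, adjusted p = 0.0225), and lost its call without siCt replicate 2 (adjusted p = 0.0543), siAxl replicate 1 (0.0757) or siAxl replicate 2 (0.0561). KITLG was lower in each siAxl library than in either control. CSF1, the ligand of CSF1R, and AGRN, which acts through MUSK, were looked at after their values were seen. CSF1 had 52979 and 55012 in siCt and 50051 and 48951 in siAxl, a log2 fold change of -0.13 (95% interval -0.27 to 0.02, adjusted p = 0.191), and AGRN had one of 0.13 (adjusted p = 0.177).

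**Figure D5:**
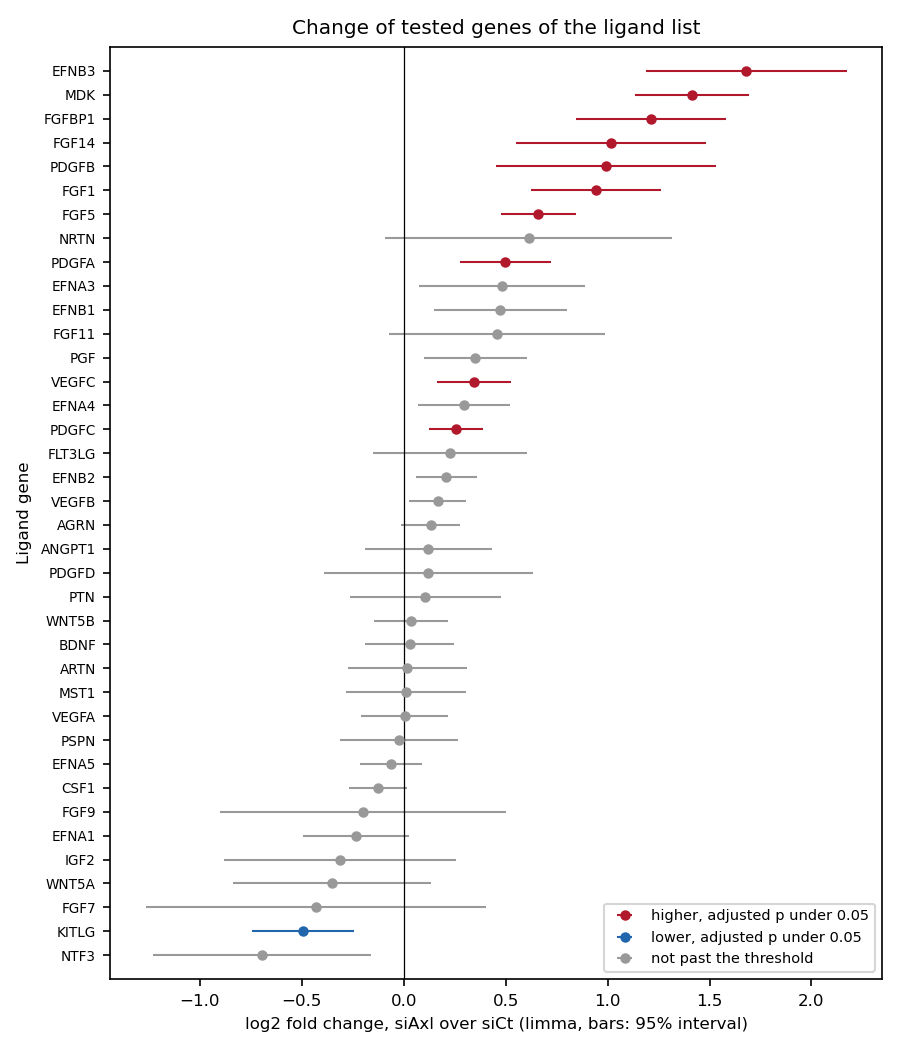
Log2 fold change of siAxl over siCt (horizontal axis) with 95% intervals for tested genes of the ligand list (vertical axis), coloured by call. EFNB3 at 1.68 and MDK at 1.42 lie at the upper end, and KITLG at -0.49 is called on the negative side.

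Of the 72 adaptors, phosphatases, ubiquitin ligases, co-receptors and binding proteins, 57 were tested, 14 rose and 3 fell, with a median log2 fold change of 0.13. Among all 16064 genes tested, 10.8% rose and 7.91% fell. Of the 6 insulin-like growth factor binding protein genes on the list, counted together after their values were seen, 4 were tested and all 4 rose, while IGFBP2 and IGFBP5 had 14 and 9 reads over the 4 libraries. IGFBP7 had 3692 and 3234 in siCt and 6745 and 6992 in siAxl (log2 fold change 0.99, SE 0.0737, adjusted p = 0.00136), and IGFBP3 had 565 and 554 against 1016 and 988 (0.84, adjusted p = 0.00184). IGFBP6 rose by 0.52 (adjusted p = 0.0152). IGFBP4 rose by 0.36 (adjusted p = 0.0123) from the highest counts of this list, 80945 and 76934 in siCt, and lost its call without siCt replicate 2 (adjusted p = 0.0829), siAxl replicate 1 (0.0521) or siAxl replicate 2 (0.0598). The IGFBP6 call was lost without siAxl replicate 2 (adjusted p = 0.061). IGFBP7 shares 270 exon bases with POLR2B, which is read from the opposite strand and averaged 12642.5 reads per library beside 5224 for IGFBP7.

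Among the named genes whose proteins restrain receptors, ERRFI1 and LRIG1 rose and SOCS3, NEDD4L and LRIG3 fell. Of the 14 regulators that rose only 8 are named, while all 3 that fell are. The names therefore give no balance of directions. ERRFI1, a feedback inhibitor best known for EGFR, had 43696 and 42917 in siCt and 56409 and 57018 in siAxl (log2 fold change 0.39, adjusted p = 0.00678). LRIG1, which promotes receptor degradation, had 1061 and 892 in siCt and 1471 and 1535 in siAxl (0.63, adjusted p = 0.00688). It shares 907 exon bases with SLC25A26, transcribed the other way, which averaged 577 reads beside 1251.5 for LRIG1. SOCS3, a suppressor of cytokine signalling, had 1407 and 1468 in siCt and 1151 and 1107 in siAxl (-0.35, adjusted p = 0.0154). NEDD4L, a ubiquitin ligase, fell by 0.22 on the log2 scale (adjusted p = 0.036) and LRIG3 fell by 0.37 (adjusted p = 0.048). The LRIG3 call was lost under edgeR (adjusted p = 0.0535) and DESeq2 (0.0575). Calls of LRIG3 and NEDD4L were also lost without siCt replicate 2 (adjusted p = 0.206 and 0.133), siAxl replicate 1 (0.14 and 0.207) or siAxl replicate 2 (0.128 and 0.0855), and that of SOCS3 without siAxl replicate 2 (0.074). Of the adaptors, GAB2 had 1095 and 1119 in siCt and 1507 and 1449 in siAxl (0.42, adjusted p = 0.00816), and SHC2 had 33.6 and 30.3 against 83.5 and 65.8 (1.19, adjusted p = 0.0125). Without siAxl replicate 1 the adjusted p of SHC2 was 0.0693.

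A property that the member list did not use was read from the transcripts. The 7-base word CACATCA was counted in the 3′ untranslated region of each gene's longest coding transcript in GENCODE 29. The word was taken up because genes that carry it were already known to be shifted upwards in these libraries. Of 12942 tested genes with such a region, 11.4% carried the word. Of the 1473 carriers, 27.0% were called higher and 5.84% lower, with a median log2 fold change of 0.10. Of the 11469 other genes, 11.1% were called higher and 9.79% lower, with a median of -0.0094. Carriers and other genes were not matched for the length of this region, and a longer region can hold the word more often. AXL has no copy of the word in that transcript. Among the tested receptors the carriers were IGF1R, PDGFRB and INSR, of which IGF1R and PDGFRB rose. Their sites are shown with 11 bases on either side and the word in capitals, because they are the receptor sequences that this count rests on.
IGF1R: aaccactgaggCACATCAtggaattgatg
PDGFRB: attccagatcaCACATCAcactctgggga
INSR: agaataccaagCACATCActttctctctg

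On GRCh38, the word of IGF1R lies at chr15:98961642-98961648 on the plus strand, that of PDGFRB at chr5:150114653-150114659 on the minus strand and that of INSR at chr19:7113511-7113517 on the minus strand. Each is in the last exon. The remaining 27 tested receptors, which have no copy there, held 7 that rose and 3 that fell, a share of 25.9% and 11.1%, and their median log2 fold change was 0.12. The 7 that rose were MET, DDR1, PTK7, FGFR1, EPHA4, EPHB4 and LTK, of which EPHA4 has a copy of the word outside the 3′ untranslated region. Of the ligands, 6 tested genes carried it and 4 of these rose, namely MDK, FGF1, FGF14 and PDGFB, while 6 of the 33 others rose. Of the regulators, 14 tested genes carried it and 6 of these rose, IGFBP7, ERRFI1 and GAB2 among them, while 8 of the 43 others rose. The part of the word in any of these changes was not tested.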

How the data were processed

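RNA from 4 libraries of MDA-MB-231 cells was sequenced on an Illumina HiSeq. Per the labels and the submitters' processing notes, the authors used CASAVA 1.8, TopHat2 2.0.10, GRCh37, HTSeq 0.5.3 and DESeq2 1.4.5. The annotation and the strand setting were not given in the sources used here. The authors deposited 1 table of normalized counts per gene and library, that is reads divided by a size factor (unit: signal). It also holds columns of the authors' own comparison, which were not used. Per-sample columns not used numbered 0.

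Whole reads were recovered from the deposited normalized counts for 100% of values (within 0.01 reads), giving depth. Genes passing filterByExpr of edgeR 4.0.16 on these reads were tested by limma 3.58.1 in R 4.3.3 (lmFit, eBayes with trend) on log2(normalized count + 1), siAxl against siCt, with Benjamini-Hochberg adjustment over 16064 genes and calls at an adjusted p under 0.05. The added 1 shrinks fold changes of low genes, yet DESeq2 gave values on either side. It had 1.05 for LTK and 1.73 for EFNB3, beside 1.08 and 1.68 here. The 95% intervals are per gene and unadjusted. With 2 libraries per group, a permutation test cannot go below 0.333. The edgeR quasi-likelihood test on the recovered reads called 3122 genes. Alternatives were DESeq2 1.42.0, other scalings, pseudocounts, filters and thresholds, a replicate block and leaving out each library. The fits were tested on simulated data. RPKM used recovered reads and GENCODE 29 transcript lengths, found for all 50 members.

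The members, the ligand list, the regulator list, the 6 marker lists and the word were chosen with earlier results of these data known. Named genes were AXL, members called or at 1 CPM or more on average, the remaining members by range, and up to 8 called genes per direction and list by smallest adjusted p. The limit a count of 0 allows covers counting error only. A gene of the ligand list that is counted in its totals is not reported here by name.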

Additional observations from a re-analysis of the deposited data

How the results depend on the processing

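Of the 12 called receptors, MET, DDR1 and PTK7 kept their call under all 13 alternatives. At an adjusted p under 0.01, 3 receptors were higher and 0 lower. The ligands had 5 and 0, the regulators 5 and 0, and all 16064 genes tested 613 and 246. DESeq2 called 8 receptors higher and 1 lower, beside 11.8% and 8.92% of the 13261 genes it gave an adjusted p. Testing every gene with at least 1 read gave 5 higher and 0 lower of 45 receptors tested. The ligands then had 5 and 0, and the regulators 7 and 1. Of the 27108 genes in that test, 757 (2.79%) were higher and 340 (1.25%) lower. Scaling by library size moved the receptor median to 0.11. No alternative reversed a called receptor, which the separated groups fix in advance for the fits that leave out a library. Depth limits the 20 untested members.

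Same-numbered libraries deviated together with a correlation of 0.271 across 16064 genes, but with 2 pairs the numbers are not shown to pair the samples. With the replicate as a block, 11 receptors were higher and 6 lower, 17 and 5 ligands, 26 and 9 regulators, and 3737 and 3573 of all genes. Those are 23.3% and 22.2% of the genes tested, beside 10.8% and 7.91% without the block. With 4 libraries the block fit leaves little residual spread per gene, so its p-values lean on variances pooled across genes. The receptors gained were LMTK2 (adjusted p = 3.05e-07), ROR1 (9.17e-06), EPHB2 (0.0110), STYK1 (0.0231) and MST1R (0.0461).

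With each library left out in turn, 4 to 8 receptors were higher and 0 to 4 lower, 6 to 11 and 1 to 2 ligands, 6 to 15 and 0 to 5 regulators, and 872 to 2158 and 413 to 1742 of all genes. The receptor median ran from 0.138 to 0.204. Without siAxl replicate 1, 4 receptors were higher (MET, DDR1, PTK7 and IGF1R) and 0 lower, beside 5.53% and 2.57% of all genes. Without siCt replicate 1, ROR1 and LMTK2 were also called lower. The log2 fold change of EPHB6 ran from -0.28 without siAxl replicate 1 to 0.060 without siAxl replicate 2, with 0.044 without siCt replicate 1. That of FGFR4 ran from -0.031 to 0.36, FGFR3 from -0.0012 to 0.61 and DDR2 from -0.071 to 0.23, the negative values without siCt replicate 2. The lone library of an arm is assumed to vary like the other group. The cause was not tested.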
